A study of Mus musculus with 17 samples.

Results

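The miR-130 and miR-301 family was followed in small RNA libraries of mouse embryonic stem cells (ESCs), the pluripotent cells of the early embryo kept in culture. Its 4 members, mmu-miR-130a-3p, mmu-miR-130b-3p, mmu-miR-301a-3p and mmu-miR-301b-3p (written without the species prefix from here on), were taken by name from the 1033 mature microRNAs (miRNAs) measured, and all 4 passed the filter on low values that left 521 miRNAs for testing. Values were analysed for 14 libraries in 5 groups. Undifferentiated cells of the lines B8 (n = 3) and D3 (n = 3) were collected at day 0, when they grew without feeder cells in medium with LIF, the cytokine that holds ESCs in the pluripotent state. Embryoid bodies, aggregates formed in hanging drops, were collected at day 7 from B8 (n = 3) and D3 (n = 2), and outgrowths of such bodies at day 21 from D3 (n = 3). All day 7 and day 21 cultures lacked LIF and had RA, ITS and N2 added to their medium. B8 at day 21 was not analysed here. Whether the replicates were grown separately is not in the labels. The p-values therefore weigh differences only against the spread of these samples, and that spread may be technical.

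A miRNA guides the Argonaute protein to messenger RNAs that pair with its seed, bases 2 to 8 from its 5′ end, and lowers the output of those messages. miRNAs with one seed share many predicted targets even when they are made from different loci. The miR-130 and miR-301 family is conserved in vertebrates. Its known targets include the homeobox genes Meox2 and Hoxa5, through which miR-130a acts in endothelial cells, and Pparg, the master regulator of fat cell formation. Members of the family have also been used to aid the reprogramming of fibroblasts to pluripotent cells. The mature sequences are shown because the members share a seed but changed to different extents. The closest pair among the sequences shown, miR-130a-3p and miR-130b-3p, had similar profiles as deposited, though their ratio was lower at day 7 than at day 0. The sequences come from RefSeq (GRCm38.p6), are written 5′ to 3′, and carry the seed in capitals. miR-301b-3p is named only.
miR-130a-3p: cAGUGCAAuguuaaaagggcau
miR-130b-3p: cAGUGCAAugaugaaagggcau
miR-301a-3p: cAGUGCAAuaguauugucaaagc
The 3 sequences share the seed AGUGCAA and their first 9 bases. miR-130a-3p and miR-130b-3p share their first 10 bases and differ at 2 of 22 positions, by U11A and A13G, with positions counted from 1 at the 5′ end and the base of miR-130a-3p given first. miR-301a-3p, with 23 bases, differs from miR-130a-3p at 10 positions and from miR-130b-3p at 11. How reads that fit more than 1 of these near-identical miRNAs were counted is not given in the sources used here, so the split between miR-130a-3p and miR-130b-3p carries that uncertainty. The split between miR-301a-3p and miR-301b-3p may carry it too, as the sequence of miR-301b-3p was not compared here. In RefSeq 4 other mouse miRNAs have this seed, namely miR-130c, miR-721, miR-6341 and miR-6389, and they were not analysed here.

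The members are encoded at 3 loci. The precursors of miR-130b (chr16:17124061-17124142) and miR-301b (chr16:17124400-17124496) lie 257 bases apart on the minus strand in GRCm38, in introns of the gene 2610318N02Rik and on its strand, and neither overlaps an exon. The precursor of miR-301a (chr11:87113004-87113089, plus strand) lies in an intron of Ska2, on its strand. Ska2 encodes a protein of the spindle and kinetochore. The precursor of miR-130a (chr2:84741115-84741178, minus strand) lies in no protein-coding gene, and the nearest are Gm19426, 991 bases away, and Ypel4, 2460 bases away.

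The libraries held 56377 to 1060306 recovered miRNA reads, with the fewest in a D3 library of day 0 and the most in a D3 library of day 7. The authors' deposited values are reads divided by 1 factor for each library, and their column totals differ 17.7-fold. A shift common to most miRNAs is therefore part of each change on this deposited scale, and between days 0 and 7 the median miRNA moved by log2 −0.21 (B8) and 2.25 (D3). A second, relative scale divides each library by a median-of-ratios factor over the 319 miRNAs above 0 in all libraries, which brings these medians to −0.04 and 0.27, closer to 0 but not to it. A ratio between 2 members within a library carries no library factor at all. Markers of the ESC state, 10 miRNAs of the miR-290 and miR-302 clusters, matched the day 0 labels by their summed signal. They made up 15.9% to 17.3% of a B8 library and 12.8% to 15.3% of a D3 library at day 0. At day 7 they made up 1.98% to 5.11% and 0.414% to 0.429%, and in D3 at day 21 0.794% to 0.817%. As deposited 0 of the 10 were called higher and 9 lower in B8 at day 7, where 21.9% of all miRNAs were called higher. In D3 1 was called higher and 5 lower at day 7, and 4 higher and 6 lower at day 21 against day 0. Of all miRNAs 70.4% and 65.3% were called higher in these D3 comparisons. The median change of the 10 was −1.81 in B8 at day 7, against −0.21 over all miRNAs. In D3 it was −0.63 at day 7 and −1.55 at day 21, against 2.25 and 1.69 over all. These are bulk samples, in which a change in the number of cells that make a miRNA and a change in its level per cell cannot be told apart.

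miR-130a-3p was the most abundant member in ESCs. Its deposited values in B8 were 1001, 936 and 709 at day 0 and 842, 611 and 837 at day 7. In D3 they were 334, 461 and 317 at day 0, 2400 and 2332 at day 7, and 939, 1075 and 1257 at day 21. The days overlapped in B8, whereas in D3 every later library stood above every day 0 library. On the relative scale the order of the 5 groups ran from D3 at day 7 (1007 ± 16.9, SD, n = 2) through B8 at day 7 (897 ± 112, n = 3), B8 at day 0 (885 ± 105.97, n = 3) and D3 at day 0 (770 ± 90.3, n = 3) to D3 at day 21 (765 ± 5.75, n = 3), and each neighbouring pair in that order overlapped.

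As deposited miR-130b-3p had a similar profile at a lower level. Its deposited values in B8 were 444, 422 and 346.5 at day 0 and 495, 351 and 517 at day 7. In D3 they were 141, 193 and 137 at day 0, 1360 and 1321 at day 7, and 426, 477 and 515 at day 21. As for miR-130a-3p, the days overlapped in B8 and separated from day 0 in D3. Its relative values were highest in D3 (571 ± 9.90) and B8 (534 ± 86.6) at day 7, which overlapped, lower in B8 at day 0 (406 ± 28.8), and lowest in D3 at day 21 (334 ± 15.8) and day 0 (326 ± 40.3), which overlapped. Unlike those of miR-130a-3p, its relative values did not overlap between days 0 and 7 in B8.

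miR-301a-3p separated the days in both lines. Its deposited values in B8 were 474, 517 and 355 at day 0 and 1298, 973 and 1099 at day 7. In D3 they were 160, 254 and 147 at day 0, 6274 and 5883 at day 7, and 1852, 2629 and 2899 at day 21. No library of a later day overlapped day 0 of its line. The relative values were 2587 ± 109 in D3 at day 7, 1717 ± 197 in D3 at day 21 and 1320 ± 61.5 in B8 at day 7, with no overlap between these groups, and 450 ± 63.6 in B8 and 384 ± 63.9 in D3 at day 0, which overlapped. By its mean share of the miRNA signal it was number 46 of the 1033 miRNAs at day 0 in both lines, number 25 in B8 at day 7, and number 12 at day 7 and 26 at day 21 in D3. The D3 share itself was higher at day 21 (1.08%) than at day 7 (0.785%), although the rank was lower.

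miR-301b-3p, the least abundant member, moved like miR-301a-3p. Its deposited values in B8 were 44.5, 51.5 and 44.1 at day 0 and 134, 104 and 127.6 at day 7. In D3 they were 6.73, 24.3 and 14.2 at day 0, 446 and 540 at day 7, and 135, 182 and 215 at day 21. The D3 day 0 values rest on 13, 45 and 17 reads, so counting error is large there. Relative values were 210 ± 29.0 in D3 and 143.5 ± 10.05 in B8 at day 7, 123.6 ± 12.7 in D3 at day 21, 47.1 ± 3.90 in B8 at day 0 and 31.1 ± 15.5 in D3 at day 0, and no neighbouring pair in this order overlapped.

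**Figure D1:**
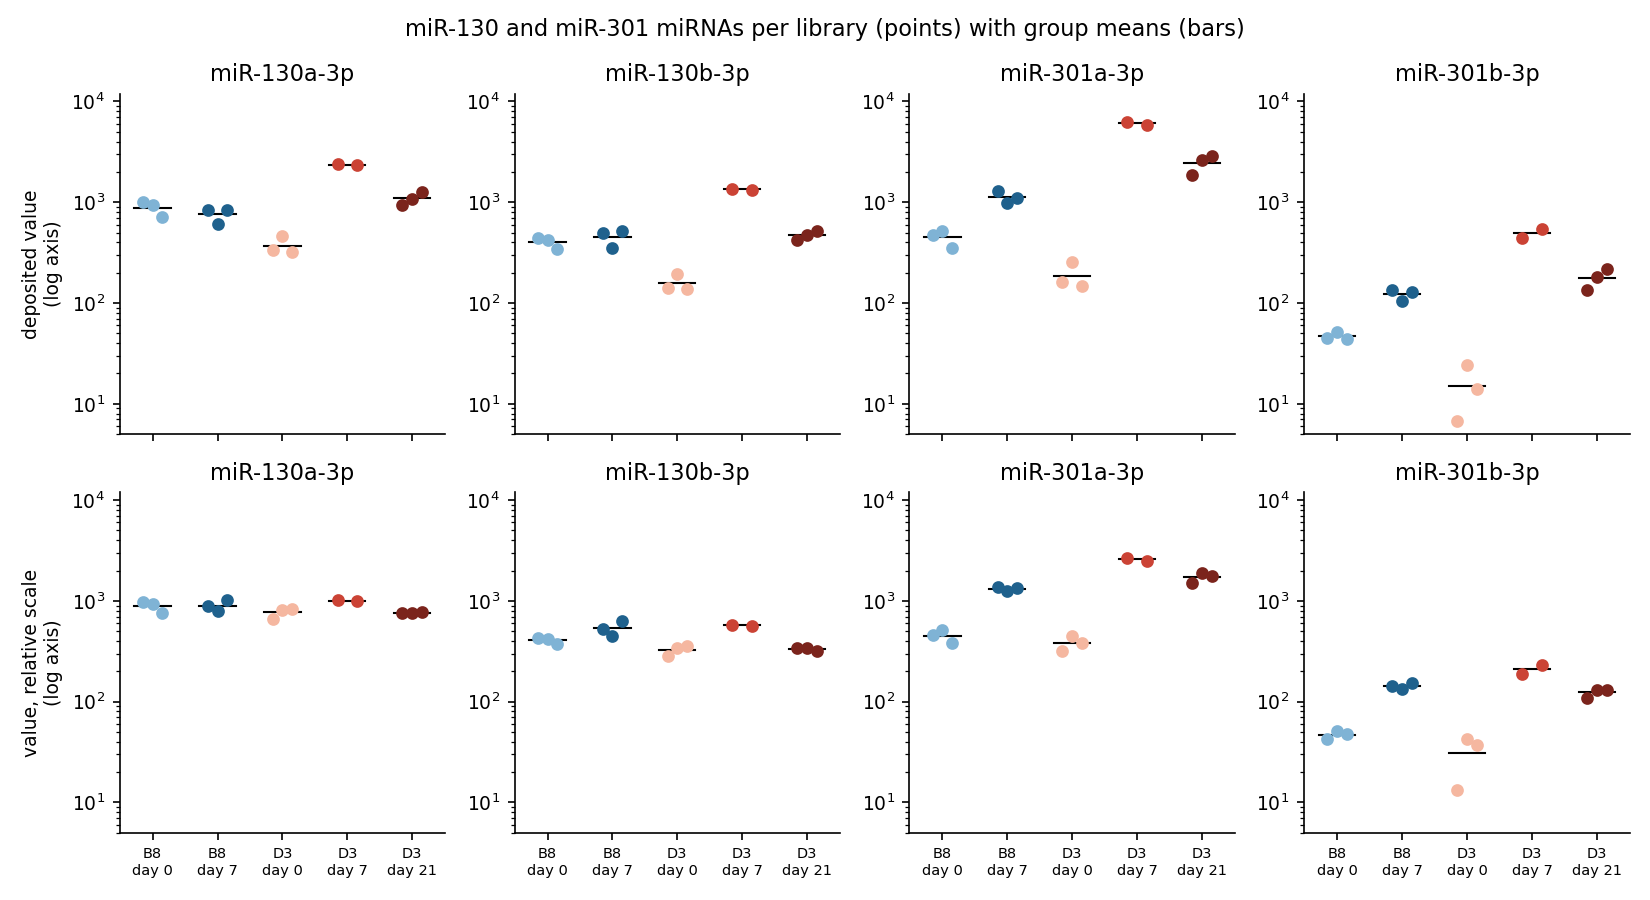
Value of each of the 4 miRNAs (columns) in each library on log axes, as deposited (upper row) and on the relative scale of median-of-ratios factors (lower row). Points are libraries and bars are means of the 5 groups (n = 3, and 2 for D3 at day 7). On the relative scale miR-130a-3p stays between 666.6 and 1019 in all 14 libraries, while all libraries of miR-301a-3p at day 7 and day 21 lie above those at day 0.

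The make-up of the family changed with differentiation. At day 0 miR-130a-3p held 49.4% ± 1.34 of the summed signal of the 4 members in B8 (SD, n = 3) and 51.0% ± 1.40 (n = 3) in D3, and miR-301a-3p 25.1% ± 1.49 and 25.4% ± 1.75. At day 7 miR-301a-3p was the leading member, with 45.7% ± 2.75 in B8 and 59.1% ± 1.05 in D3, and miR-130a-3p stood at 30.9% ± 1.31 and 23.0% ± 0.177. The D3 outgrowths at day 21 kept such a composition, with 58.3% ± 2.66 for miR-301a-3p and 26.1% ± 1.72 for miR-130a-3p. miR-130b-3p went from 22.8% ± 0.970 to 18.4% ± 1.48 in B8 and from 21.6% ± 0.823 to 13.0% ± 0.0924 in D3, and miR-301b-3p from 2.66% ± 0.381 to 4.96% ± 0.133 and from 1.98% ± 0.823 to 4.80% ± 0.780. The family as a whole took, at days 0 and 7, a mean share of the miRNA signal of 1.27% ± 0.0453 and 1.42% ± 0.0872 in B8 and 1.22% ± 0.175 and 1.33% ± 0.0948 in D3, and 1.85% ± 0.131 in D3 at day 21.

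**Figure D2:**
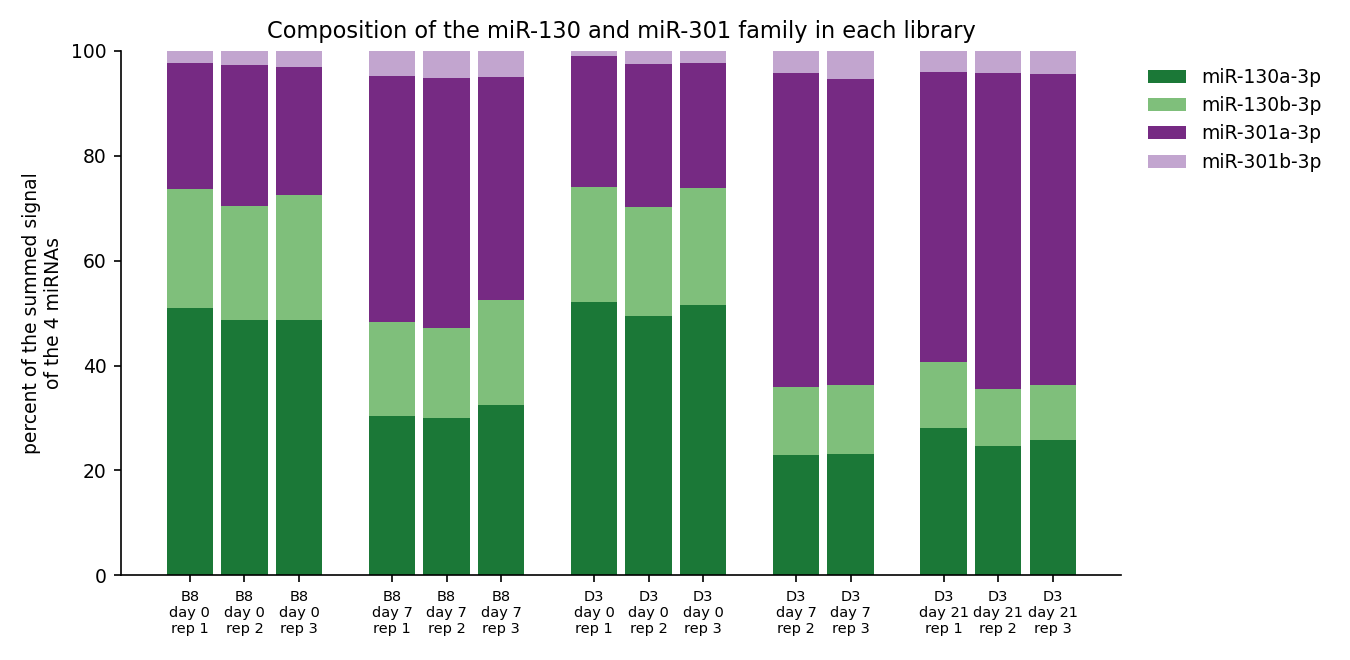
Percent of the summed signal of the 4 miRNAs that each contributed, with 1 bar for each library. miR-130a-3p is the largest part in the 6 libraries of day 0, and miR-301a-3p is the largest in the 8 libraries of days 7 and 21.

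The cluster of miR-130b and miR-301b was then set against miR-130a, and its members against each other, by ratios within libraries. The ratio of miR-130a-3p to the sum of miR-130b-3p and miR-301b-3p was 2.05, 1.98 and 1.82 in the B8 libraries of day 0 and 1.34, 1.34 and 1.30 at day 7. In D3 it was 2.26, 2.12 and 2.10 at day 0, 1.33 and 1.25 at day 7, and 1.67, 1.63 and 1.72 at day 21. It was thus lower at day 7 than at day 0 without overlap in both lines, by a log2 difference of −0.55 in B8 and −0.74 in D3, and at day 21 it lay between, at −0.37 from day 0. In an exact permutation test each of these 3 differences had p = 0.1, the smallest value that 3 libraries against 3 or 2 allow (2-sided, adjusted p = 0.14 over 18 ratio tests). With labels permuted within each line over both lines together, a test chosen after the data were seen, the day 7 difference had an exact p = 0.005 (2-sided), the smallest that its 200 arrangements can give. The size of the difference depended on which member stood for the cluster. Against miR-130b-3p alone it came to −0.37 for B8 and −0.42 for D3 at day 7, and −0.04 for D3 at day 21. Against miR-301b-3p alone it was −1.58, −2.46 and −2.10.

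The 2 members of the cluster themselves diverged. In B8 the ratio of miR-301b-3p to miR-130b-3p was 0.101, 0.123 and 0.128 at day 0 and 0.271, 0.298 and 0.247 at day 7, a 2.32-fold higher ratio. In D3 it was 0.0510, 0.128 and 0.107 at day 0, 0.328 and 0.409 at day 7, and 0.317, 0.383 and 0.418 at day 21, 4.13-fold and 4.18-fold above day 0. The days did not overlap (exact permutation p = 0.1, 2-sided, the smallest possible, for each of the 3 comparisons, adjusted p = 0.14), and over both lines the day 7 difference had p = 0.005 in the exact test within lines. As a share of the cluster's reads in 1 library, miR-301b-3p ran from 4.56% (95% exact binomial interval 2.45% to 7.67%, 13 of 285 reads) to 11.3% (8.52% to 14.6%) over the 6 day 0 libraries, and from 19.8% (16.3% to 23.7%) to 29.5% (27.4% to 31.6%) over the 8 later ones. Such intervals cover counting error only, since copies made by PCR are not independent molecules. They also leave out reads that may fit both miR-301a-3p and miR-301b-3p. The part of such reads in this ratio was not tested. The lowest share was in replicate 1 of D3 at day 0, and without this library the ratio was 3.13-fold higher at day 7 and 3.17-fold at day 21.

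miR-301a-3p and miR-301b-3p come from different chromosomes, and how reads fitting both were counted is not known. Their ratio was 9.43 at day 0 and 9.17 at day 7 in B8, and 13.2, 12.4 and 13.8 at days 0, 7 and 21 in D3 (geometric means), with overlap between the days in each of these comparisons. The log2 difference between days 7 and 0, averaged over the lines, was −0.07 (exact permutation p = 0.87 within lines, 2-sided). In D3 at day 0 the single ratios ran from 10.05 to 22.3, so this line gave a wide range, and the overlap in D3 rested on replicate 1 alone. Without it the day 0 ratios, 10.05 and 10.3, lay below those of day 7 (10.9 and 14.1) and day 21 (13.4 to 14.4), with log2 differences of 0.28 and 0.44. The ratio of miR-301a-3p to miR-130a-3p went from 0.508 to 1.48 in B8 and from 0.497 to 2.57 and 2.23 in D3, with no overlap between day 0 and the later days. The ratio of miR-130a-3p to miR-130b-3p moved less, from 2.17 at day 0 to 1.68 at day 7 in B8 and from 2.36 to 1.76 in D3, and was 2.29 in D3 at day 21, where it overlapped day 0.

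**Figure D3:**
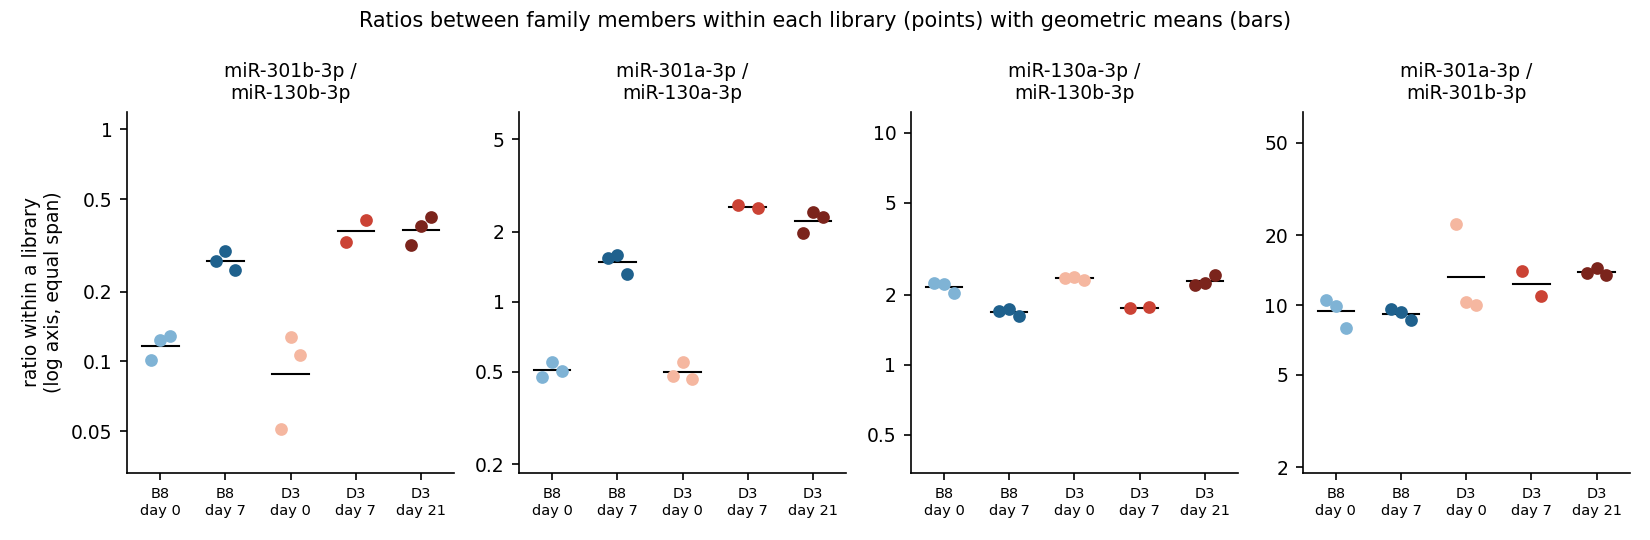
Ratios between members within each library on log axes that all span the same fold range, with points for libraries and bars for geometric means of the 5 groups. In the 2 panels on the left every library of days 7 and 21 lies above every library of day 0 of its line, whereas miR-130a-3p to miR-130b-3p stays between 1.62 and 2.44.

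Changes from day 0 were tested with limma across all 521 miRNAs. In B8 bodies at day 7 miR-301a-3p rose 2.52-fold (log2 1.33 ± 0.25 SE, limma adjusted p = 7e-05) and miR-301b-3p 2.59-fold (log2 1.37 ± 0.32, limma adjusted p = 0.00087) on the deposited scale. These were 2 of 4 members, against 21.9% of all miRNAs called higher. miR-130a-3p (log2 −0.21, 95% interval −0.68 to 0.26) and miR-130b-3p (0.16, −0.31 to 0.62) were not past the threshold of 0.05. With equal column totals miR-130a-3p was at −0.52 and called lower, as were 186 of 521 miRNAs. In relative values the changes of the miR-301 members were 1.56 and 1.60, and 3 of 4 members were called higher, against 26.9% of all miRNAs. The third was miR-130b-3p at 0.39 (limma adjusted p = 0.046), a call kept in 3 of 14 fits that each left out 1 library.

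In D3 bodies at day 7 all 4 members rose on the deposited scale, where 70.4% of all miRNAs did. miR-301a-3p was 33.4-fold higher (log2 5.06 ± 0.28, limma adjusted p = 2.3e-14) and miR-301b-3p 35.7-fold (5.16 ± 0.36). miR-130a-3p was 6.46-fold higher (2.69 ± 0.26) and miR-130b-3p 8.64-fold (3.11 ± 0.25). The 4 members were, on the relative scale, again called higher, against 36.1% of all miRNAs, at log2 2.76 for miR-301a-3p, 2.89 for miR-301b-3p, 0.81 for miR-130b-3p (limma adjusted p = 0.00058) and 0.39 for miR-130a-3p (limma adjusted p = 0.047, kept in 5 of 14 fits that left out 1 library). edgeR on recovered reads called 3 of 4 higher, against 167 of 521 miRNAs, and put miR-130a-3p at 0.21 (edgeR adjusted p = 0.39). With column totals made equal miR-130a-3p and miR-130b-3p were called lower instead, at −1.02 and −0.60, as were 233 of 521 miRNAs. miR-301a-3p and miR-301b-3p stayed higher at 1.35 and 1.49, where 110 of 521 miRNAs were called higher.

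In D3 outgrowths at day 21 the miR-301 members remained above day 0. miR-301a-3p was 13.3-fold higher as deposited (log2 3.73 ± 0.25, limma adjusted p = 9.7e-13) and 4.49-fold on the relative scale. miR-301b-3p was 12.7-fold and 4.38-fold higher. miR-130a-3p and miR-130b-3p rose as deposited (1.56 and 1.60), which makes 4 of 4 members against 65.3% of all miRNAs. In relative values they stood at −0.00 (95% interval −0.32 to 0.31) and 0.04 (−0.29 to 0.37), below the median of 0.41 over all miRNAs on that scale, so 2 of 4 members were called there, against 38.2% of all miRNAs. Between day 7 and day 21 all 4 fell as deposited, by log2 changes of −1.13 to −1.51, where 31.5% of all miRNAs fell. In relative values miR-130b-3p (−0.77, limma adjusted p = 0.0031) and miR-301a-3p (−0.60, limma adjusted p = 0.018) fell, 2 of 4 against 10.6% of all miRNAs. The call of miR-301a-3p was lost without either library of day 7 or without replicate 1 of day 21. miR-130a-3p and miR-301b-3p were at −0.40 and −0.76, and with equal column totals all 4 changes were above 0, between 0.28 and 0.66. The comparisons with day 0 of D3 share those control libraries.

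**Figure D4:**
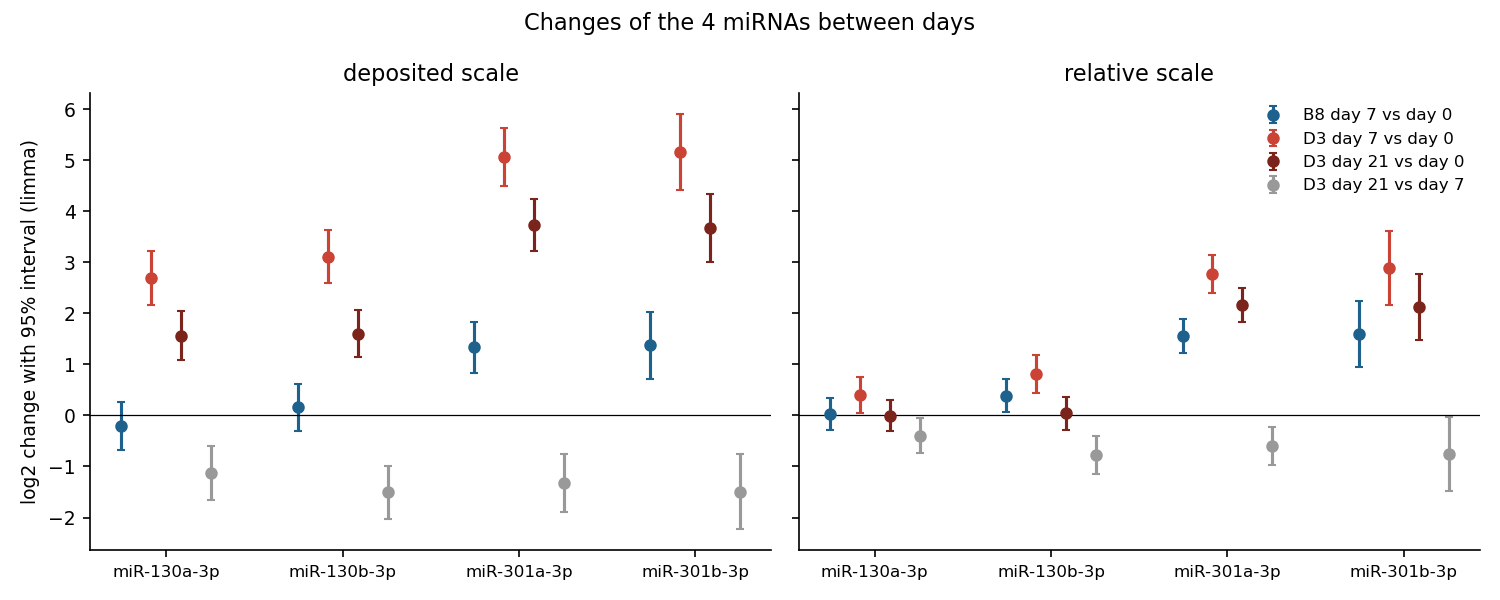
Log2 change of each of the 4 miRNAs with its 95% interval from limma, on the deposited scale (left) and the relative scale of median-of-ratios factors (right), for 4 comparisons of days. On the right, miR-301a-3p and miR-301b-3p lie between 1.56 and 2.89 in the comparisons with day 0, and miR-130a-3p and miR-130b-3p between −0.00 and 0.81.

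At day 0 the lines were compared on both scales. As deposited all 4 members were lower in D3, by log2 differences of −1.25 to −1.77, against 46.1% of all miRNAs lower. The relative-scale differences were −0.20 (95% interval −0.51 to 0.11), −0.32 (−0.65 to 0.01) and −0.23 (−0.57 to 0.10) for miR-130a-3p, miR-130b-3p and miR-301a-3p and −0.75 (−1.39 to −0.10, limma adjusted p = 0.092) for miR-301b-3p, so 0 of 4 were called, against 15.9% of all miRNAs lower. The value of miR-301b-3p depended on single D3 libraries of day 0: it was −0.24 without replicate 1, the library with 13 reads, and passed the threshold without replicate 2 (−1.05) or replicate 3 (−0.95). By edgeR on recovered reads 0 of 4 were called as well, against 119 of 521 miRNAs called in either direction. On the relative scale 1 of the 4, miR-301b-3p, had an unadjusted limma p under 0.05. At day 7 all 4 were higher in D3 as deposited (1.58 to 2.44, against 66.0% of all miRNAs). In relative values 1 of 4 was, miR-301a-3p at 0.97 ± 0.18 (limma adjusted p = 0.0003), against 24.8%. With equal column totals miR-301a-3p was at 0.28 and not called. miR-130a-3p and miR-130b-3p were then called lower in D3, at −0.52 and −0.58, as were 122 of 521 miRNAs.

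The change from day 0 to day 7 was larger in D3 than in B8 for all 4 members as deposited, where 71.8% of all miRNAs showed such a difference. The difference was 2.90 and 2.95 for miR-130a-3p and miR-130b-3p and 3.73 and 3.79 for miR-301a-3p and miR-301b-3p. With relative values, where the median over all miRNAs was still 0.49, 2 of 4 were called, against 20.7% of all miRNAs: miR-301a-3p at 1.21 ± 0.24 (limma adjusted p = 0.00074) and, with less precision, miR-301b-3p at 1.29 ± 0.46 (limma adjusted p = 0.037, kept in 7 of 14 fits that left out 1 library, over which it ran from 0.78 to 1.59). With equal column totals 0 of 4 were called, against 159 of 521 miRNAs called in either direction. In relative values miR-130a-3p and miR-130b-3p stood at 0.37 and 0.43.

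Each precursor yields a second strand, here the 5p strand, which is usually degraded. For miR-130a and miR-301a it was rare, with a mean of 0.193% to 0.329% and 0.174% to 0.775% of the reads of both strands over the 5 groups, and for miR-301b it summed to 1 to 25 reads in a group. The 5p strand of miR-130b was common in every group. Its sequence has another seed, CUCUUUC, in capitals here.
miR-130b-5p: aCUCUUUCccuguugcacuacu
It made up 21.8% ± 1.80 of the reads of both miR-130b strands at day 0 and 16.4% ± 6.47 at day 7 for B8. For D3 the shares were 21.0% ± 5.99, 26.3% ± 0.493 and 20.9% ± 2.86 on days 0, 7 and 21. Its deposited values were 113, 114 and 108 in B8 at day 0 and 146, 69.4 and 56.3 at day 7, so the B8 bodies spread widely. In D3 they were 54.3, 38.8 and 30.8 at day 0, 478 and 481 at day 7, and 113, 149 and 113 at day 21. It rose on the relative scale in D3 from day 0 to day 7 (1.27 ± 0.29, limma adjusted p = 0.0011), was at −0.20 in B8 (limma adjusted p = 0.54), and fell in D3 from day 7 to day 21 (−1.21). It thus took the direction of miR-130b-3p in D3. Its ratio to miR-130b-3p overlapped between days 0 and 7 in both lines, but in each line through replicate 1 of 1 group. In D3 this ratio was 0.388, 0.203 and 0.228 at day 0 and 0.351 and 0.364 at day 7. In B8 the values were 0.255, 0.270 and 0.313 at day 0 and 0.295, 0.199 and 0.110 at day 7. Days 7 and 21 of D3 did not overlap.

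Likeness between profiles was described by Pearson's r over the 14 libraries in log2 relative values. These libraries fall into 5 groups, so r reflects mainly the group means and has no p. Among the members r was 0.94 between miR-301a-3p and miR-301b-3p and 0.88 between miR-130a-3p and miR-130b-3p, but 0.66 between the cluster mates miR-130b-3p and miR-301b-3p. miR-130a-3p and miR-301a-3p had r = 0.36. Of the other miRNAs tested, miR-130b-3p was the most like miR-130a-3p, followed by miR-421-3p (0.75), miR-330-3p (0.66), miR-361-5p (0.66) and miR-25-3p (0.64). The profile of the summed cluster was most like those of miR-615-3p (0.94), miR-615-5p (0.92), miR-10b-3p (0.92) and miR-10a-5p (0.90), which are encoded within Hox clusters, and of miR-330-3p (0.87).

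miRNAs whose seed overlaps that of the family were set beside it. Their bases 2 to 8 read AAGUGCU in some, AAGUGCA in others and AAAGUGC in the rest. Each of these holds the run AGUGC that also opens the seed of the miR-130 and miR-301 family. Most of these miRNAs belong to the miR-290, miR-302 and miR-17 families of pluripotent and dividing cells. Of 14 such miRNAs in RefSeq 12 were measured and 11 tested. In relative values 0 of 11 rose and 7 fell in B8 from day 0 to day 7 (median −1.25), against 140 and 135 of all 521 (median −0.04). In D3 2 rose and 6 fell at day 7 (median −1.62), against 188 and 141 of all miRNAs. At day 21 against day 0, 2 rose and 8 fell (median −0.73, against 0.41 over all), where 38.2% of all miRNAs rose. As deposited 0 rose and 8 fell in B8 at day 7 (median −1.48, against −0.21 over all), where 21.9% of all miRNAs rose. In D3 at day 7, 5 rose and 2 fell as deposited (median 0.66, against 2.25 over all), where 70.4% of all miRNAs rose. Their summed share of the signal lay between 13.4% and 15.6% at day 0 and between 1.94% and 5.01% at day 7 for B8. For D3 it lay between 10.5% and 12.6% at day 0 and between 1.06% and 1.13% at day 7. Among these miRNAs, miR-291a-3p, miR-294-3p, miR-295-3p, miR-302b-3p and miR-302d-3p are also ESC markers summed above, so the 2 sums are not independent.

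The summed signal of markers of other cell types differed between the groups as well. The 5 neural markers summed to 0.0799% to 0.106% of the signal at day 0 and 1.16% to 1.24% at day 7 for B8, and to 0.0774% to 0.0904%, 1.36% to 1.41% and 0.685% to 0.808% on days 0, 7 and 21 for D3. The 9 markers of blood and endothelial cells summed to 0.385% to 0.400% and 0.0557% to 0.0811% for B8 on days 0 and 7, and to 0.179% to 0.188%, 0.219% to 0.252% and 0.293% to 0.441% for D3 on days 0, 7 and 21, with 1 to 3 of the 9 at 0 in a group, among them miR-451a and miR-144-3p, markers of red blood cells, and miR-223-3p of myeloid cells. The 5 mesenchymal markers summed to 1.33% to 1.53% and 0.341% to 0.911% for B8 on days 0 and 7, and to 0.182% to 0.232%, 0.698% to 0.929% and 3.97% to 5.06% for D3 on days 0, 7 and 21. Markers of heart and skeletal muscle, 3 in all, stayed at or below 0.00429% at days 0 and 7 and reached 0.122% to 0.339% in D3 at day 21. The part of these cell types in the changes of the family was not tested.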

How the data were processed

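Small RNA libraries of mouse ESC lines were analysed from 1 table of mature miRNAs. Its values are signal, deposited by the authors as reads divided by 1 factor for each library, with TMM named by the table's title. The submitters' processing notes name CASAVA, FastQC, Bowtie, Partek and mm10, and the column names a cutadapt and a length step. Versions, and how reads matching several miRNAs were counted, are not given in the sources used here. In each library whole reads were recovered, since 100% of low values (at most 1000 reads) lay within 0.01 read of a multiple of a single value. Of 17 labelled samples in 6 groups, 14 in 5 groups entered.

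The filter on low values required 5 per 1000000 on average. A limma model (3.58.1, R 4.3.3) of group means on log2(value + 0.48), whose prior followed the mean level and which left 9 degrees of freedom, was tested 2-sidedly, Benjamini-Hochberg adjusted over all 521 miRNAs with a threshold of 0.05. Fold changes are on this scale. The model was tested on simulated data whose libraries were scaled to equal totals. That test therefore does not cover the shifts between deposited totals. Ratios within libraries had exact permutation tests. Genomic features came from GENCODE M21 and RefSeq. Named miRNAs were the members, their 5p strands, others with their seed and the 5 most alike in profile to miR-130a-3p and to the cluster. Alternatives were other scalings, pseudocounts, filters, a replicate block, the compared groups alone, edgeR 4.0.16 on recovered reads, and leaving out each library. Members, lists and tests were chosen with earlier results of these data known.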

Additional observations from a re-analysis of the deposited data

Results flagged for a closer look

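The change from day 0 to day 7 differed between D3 and B8 by limma's interaction test, on the deposited scale, by log2 2.90 for miR-130a-3p, 2.95 for miR-130b-3p, 3.73 for miR-301a-3p and 3.79 for miR-301b-3p. For the 5p strands the difference was 2.12 (miR-130a-5p), 3.98 (miR-130b-5p), 3.24 (miR-301a-5p) and 3.28 (miR-301b-5p), of which miR-130b-5p alone has more than 34 reads in some library. The median of all 521 miRNAs was 2.64 on this scale and 0.49 on the relative one. On the relative scale the difference was past the threshold for miR-130b-5p (1.47), miR-301a-3p (1.21) and miR-301b-3p (1.29). With equal column totals the 4 members ranged from −0.50 to 0.43 and 0 of 4 was past the threshold, against 159 of 521 miRNAs.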

How the results depend on the processing

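miR-301a-3p and miR-301b-3p were called higher in 23 of 23 alternatives on the deposited data for B8 at day 7 (log2 1.02 to 1.56 and 1.06 to 1.60), D3 at day 7 (1.35 to 5.31 and 1.49 to 5.58) and D3 at day 21 against day 0 (1.81 to 3.98 and 1.78 to 4.09). Of these alternatives 14 only left out 1 library. In the main fit as deposited 21.9%, 70.4% and 65.3% of all miRNAs were called higher in these comparisons. The scaling decided most other calls. With median-of-ratios factors, the members called numbered 2 for D3 day 21 against day 0, 2 for day 21 against day 7, 0 for D3 against B8 at day 0, 1 at day 7 and 2 for the difference of changes between lines, and miR-130a-3p at D3 day 21 was at −0.0022. All miRNAs called numbered 332 and 141 in the first 2 comparisons, against 393 and 206 as deposited. In the last 3 comparisons all miRNAs called numbered 123, 216 and 173, against 245, 392 and 387 as deposited. With equal column totals these were 113, 163 and 159, with 0, 2 and 0 members, and 209 with 1 member for D3 day 21 against day 7. Values that changed sign there were −1.02 and −0.60 for miR-130a-3p and miR-130b-3p at D3 day 7, −0.36 and −0.32 at day 21 against day 0, −0.52, −0.58 and (miR-301b-3p) −0.15 for D3 against B8 at day 7, and −0.50 and −0.44 for the difference between lines. For D3 day 21 against day 7 miR-130a-3p, miR-130b-3p, miR-301a-3p and miR-301b-3p changed sign to 0.66, 0.28, 0.46 and 0.29. edgeR on recovered reads called 119, 216 and 159 miRNAs in the 3 comparisons of lines, with 0, 1 and 2 members, 3 members for D3 day 7 against day 0 (not miR-130a-3p), 2 for D3 day 21 against day 0 and 1 for day 21 against day 7, and put miR-130a-3p and miR-130b-3p at −0.093 and −0.16 for D3 against B8 at day 7. A filter of 50 per 1000000 left fewer miRNAs to test and called 251 for D3 day 7, 258 for D3 day 21 against day 0 and 261 for D3 against B8 at day 7. The ratio of miR-130a-3p to the cluster moved with miR-130b-3p alone as the cluster (−0.37 in B8, −0.42 and −0.039 in D3 at days 7 and 21, 0.067 for D3 against B8 at day 7) and with miR-301b-3p alone (−1.58, −2.46 and −2.10, 0.52 and −0.37 for D3 against B8 at days 0 and 7). Unless stated, the cause was not tested.

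Leaving out 1 library changed no number of members called as deposited. The count for D3 day 21 against day 7 ran from 116, without replicate 2 of D3 day 7, to 220, against 206 with all, and the ratio for D3 against B8 at day 7 from −0.081 to 0.0031. Relative-scale calls were lost without each of several libraries: miR-130b-3p in B8 at day 7 without any but replicate 2 of B8 day 7 and replicates 1 and 3 of D3 day 0, miR-130a-3p in D3 at day 7 without any but the B8 day 7 libraries, replicate 3 of B8 day 0 and replicate 3 of D3 day 0, and the difference between lines of miR-301b-3p without any B8 day 0 library, replicates 1 or 2 of B8 day 7, or either library of D3 day 7. A fit with 1 library of D3 day 7 assumes that it varies like the other groups. Leaving out libraries and blocking on the relative scale, the other ratios and the test over both lines were chosen after the data were seen. With the replicate block 0 of 28 member calls changed as deposited, and the counts were 259, 407, 400, 207, 244, 387 and 383 against 260, 403, 393, 206, 245, 392 and 387. On the relative scale the block took miR-130b-3p in B8 at day 7 to a limma adjusted p of 0.055 and miR-130a-3p in D3 at day 7 to 0.07. In the labels the libraries share only a number. Of 26 same-numbered pairs 2 had deviations correlated above 0.1, and 4 of 14 libraries correlated best with their own number. The median r was 0.018 for same-numbered pairs and −0.011 for the others. Deviations from the mean of 2 or 3 libraries constrain each other, so these values cannot decide whether a number marks a shared culture or batch. Depth limits miR-301b-3p at D3 day 0 and the 5p strands other than miR-130b-5p.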
